A study of Mus musculus with 11 samples.

Results

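Collagen chain genes were followed in AML12 cells, a mouse hepatocyte line, and in lines made from it in which TXNDC5 was altered. TXNDC5 is a protein disulfide isomerase of the endoplasmic reticulum, the compartment in which collagen chains fold. The chains are all genes of the deposited table with a symbol of the form Col, number, a, number, with counts summed by symbol, and there were 44 of them among 24849 genes. They were placed in 9 structural classes. A chain was taken as detected when at least 1 library held 10 counts, which left 19 detected chains and 25 that were not.

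The series holds polyadenylated RNA of 4 KO, 3 WT and 4 KI libraries, and the labels give the AML12 line for all 3 groups with no treatment. The KO genotype is labelled a knockdown, while the methods of the study describe a knockout made with CRISPR/Cas9 and a repair plasmid that carried puromycin resistance. The KO cells were selected with puromycin, and those methods do not describe the making or selection of the KI cells. The KI genotype is labelled a knockin, and the design text places the TXNDC5 construct at the ROSA26 safe harbour. The replicates are numbered 5 to 8, with 5-6 as a single WT library, and nothing says that they were separate cultures or separate clones, so the p-values measure the spread between these libraries, which may be technical.

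Total counts were between 29840366 and 38422243 per library. In KO, *Txndc5* had 287 to 430 counts, against 3299 to 4046 in WT (log2 fold change -3.82, standard error 0.15, adjusted p = 4.09e-08). In the KI libraries it had 5344 to 6723 counts, and its level was not called above the WT level (log2 fold change 0.24, standard error 0.12, adjusted p = 0.136), whereas plain library totals gave a call (0.57, adjusted p = 0.00623). In counts scaled to a common library size (CPM), *Txndc5* was at 158 to 179 in the KI and 138 to 147 in the WT libraries. These levels did not overlap, as was so for 44.7% of all genes. Whether the construct carries a mouse or another TXNDC5 sequence is not stated in the sources used here, and RNA of another species would not be fully counted as *Txndc5*. KI is therefore used as the name on the label, not as a measured overexpression. In CPM, 10 hepatocyte markers summed to 6341 to 7462 in the KO, 3854 to 6021 in the WT and 2963 to 3757 in the KI libraries. Of these markers, 9 or 10 reached 10 counts in each group. The 5 markers of bile duct or progenitor cells summed to 1339 to 1503 CPM in the KO, 2973 to 4378 CPM in the WT and 2604 to 3082 CPM in the KI libraries, with *Epcam* at 0 in all. The 11 markers of stellate cells or fibroblasts summed to 0 to 0.782 CPM in the KO, 2.05 to 3.95 CPM in the WT and 5.29 to 7.06 CPM in the KI libraries, with *Lrat* and *Tcf21* at 0 throughout. Of these 11 markers, 2 reached 10 counts in a KO library, 2 in a WT library and 3 in a KI library. Endothelial markers stayed at or under 0.425 CPM, and leukocyte markers were between 1.32 and 9.20 CPM in sum, highest in WT. These sums moved with the lines, and their part in the collagen results was not tested.

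Collagens are secreted proteins in which chains wind into a triple helix. Fibrillar collagens build the cables of connective tissue, type IV collagens build the sheet of the basement membrane, and the FACIT collagens, named for their interrupted helices, sit on fibrils and link them to their surroundings. In liver, stellate cells and fibroblasts are known as the main source of fibrillar collagen, while hepatocytes are a known source of type XVIII collagen, whose cleaved end is endostatin. Levels below are CPM scaled with edgeR's TMM method over all 11 libraries. Genes are ranked by level only per kilobase of exon, whereas sums over chains and shares of counts are not corrected for length.

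Most of the collagen RNA came from chains of the basement membrane zone. Per kilobase, the highest level averaged over all libraries was that of *Col18a1* at 53.95 CPM per kb, followed by *Col4a1* at 27.2 and *Col4a2* at 24.6. These 3 chains held between 74.2% and 81.6% of the collagen counts of every library. The next chains were *Col15a1* at 4.21, *Col16a1* at 4.17, *Col4a5* at 3.97, *Col12a1* at 3.60 and *Col27a1* at 2.89 CPM per kb, a group of similar levels whose order differed between lines. All other chains were below 1 CPM per kb on this average. The summed level of all chains was 733 to 808 CPM in the KO, 694 to 981 CPM in the WT and 1151 to 1281 CPM in the KI libraries, so that every KI library lay above every other library, and the KO and WT libraries overlapped.

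**Figure D1:**
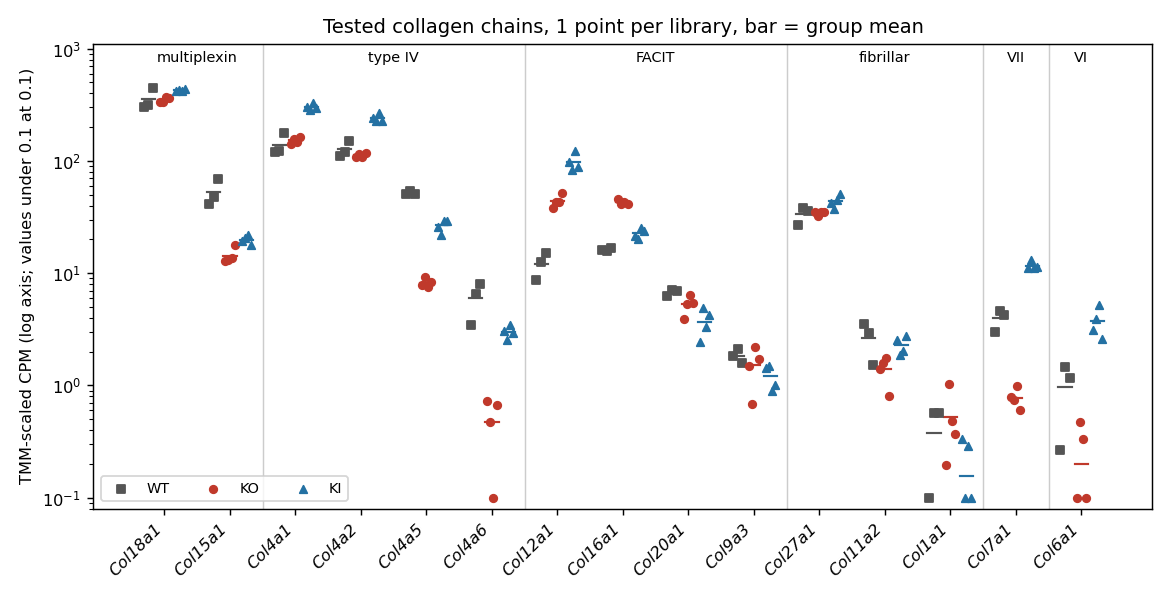
Level of the 15 chains that could be tested, in TMM-scaled CPM on a log axis, with 1 point per library, grey for WT, red for KO and blue for KI, and a bar at each group mean; values under 0.1 CPM are drawn at 0.1, and levels are not corrected for gene length. The *Col4a1* and *Col4a2* points of the KI libraries lie above the WT and KO points, those of *Col4a5* and *Col4a6* are highest in WT, and *Col16a1* is highest in KO.

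By class, all 6 type IV chains were detected, as were both multiplexins (types XV and XVIII) and the single type VII chain. Of the FACIT chains 4 of 9 were detected, of the fibrillar chains 3 of 11, of the type VI chains 2 of 6 and of the transmembrane chains 1 of 4. None of the 3 hexagonal network chains (types VIII and X) and neither of the others (types XXVI and XXVIII) reached 10 counts. Of the 25 chains not detected, 13 had 0 counts in all 11 libraries and 12 had at most 9 in any of them. *Col1a2*, *Col3a1*, *Col5a1* and *Col5a2*, chains of the abundant fibrils of connective tissue, were among those at 0. A count of 0 allows up to 3 counts, which is 0.0690 to 0.134 TMM-scaled CPM in these libraries and covers counting error only.

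In the 3 comparisons, 15 chains had enough counts to be tested, and each comparison was fitted over all genes with the libraries of its 2 groups only. Between the KO and WT cells, 6 of the 15 chains were called at an adjusted p under 0.05, 2 higher and 4 lower in the KO cells. The share of all 13359 genes called was 55.1%, with 26.7% higher and 28.4% lower, beside 40% of the tested chains. All 6 called chains changed by more than 1 on the log2 scale, as did 25.6% of all genes. The levels of 6 chains did not overlap between the 2 groups, beside 55.3% of all genes.

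Between the KI and WT cells, 10 of the 15 chains were called, 6 higher and 4 lower in the KI cells, and 6 of them by more than 1 on the log2 scale. The called share was 66.7% of the chains, and over all 13534 genes it was 42.3%, with 21.2% higher and 21.0% lower, and 16.4% called with a change over 1. The levels of 11 chains did not overlap, beside 44.7% of all genes. With plain library totals in place of TMM, 8 chains were higher and 2 lower, because *Col18a1* and *Col27a1* were then called higher and *Col4a6* and *Col20a1* were no longer called.

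Between the KO and KI cells, 11 chains were called, 1 higher and 10 lower in the KO cells. That is 73.3% of the chains, where the shares over all 13269 genes were 54.0% called, 27.0% higher and 27.0% lower, and 17.4% were called with a change over 1, beside 6 of the chains. The levels of 12 chains did not overlap, beside 48.6% of all genes. The median log2 fold change of the 15 chains was -0.30 for KO against WT, 0.27 for KI against WT and -0.72 for KO against KI, beside -0.03, -0.02 and 0.00 over all genes. These comparisons share their groups, the WT libraries serving in the first pair and the KO libraries in the first and the last, so their values are given side by side and not counted as separate evidence. Library totals moved the median of all genes to 0.38 for KO against WT and 0.31 for KI against WT, and fold changes are therefore relative to the bulk of the genes.

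**Figure D2:**
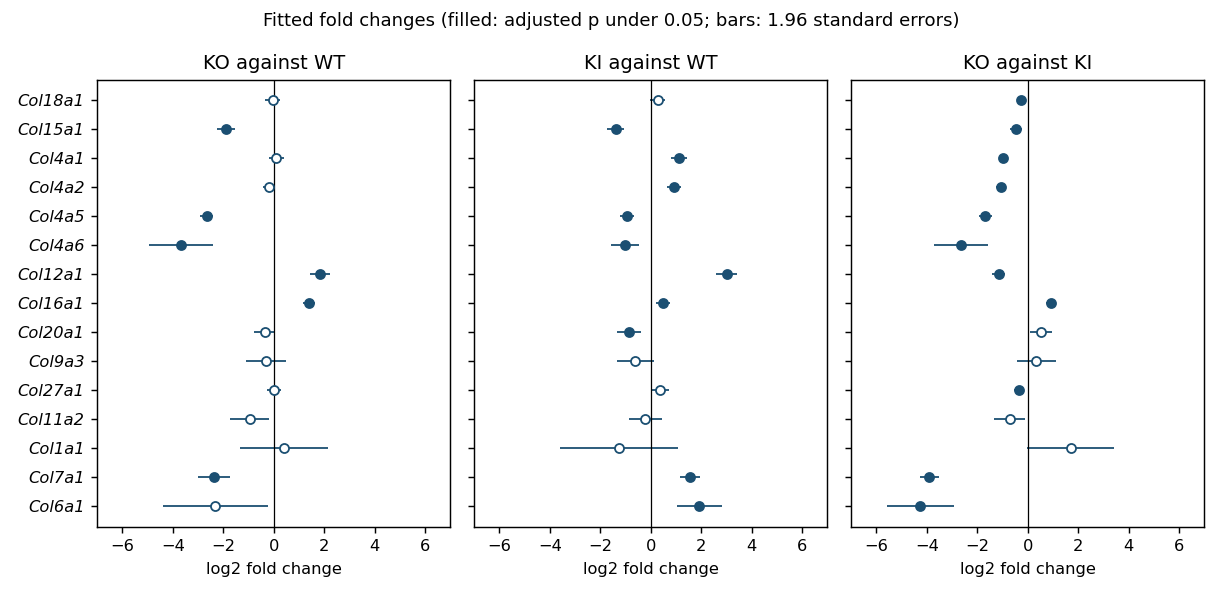
Fitted log2 fold change of the 15 tested chains in KO against WT, KI against WT and KO against KI, with bars of 1.96 standard errors and filled points where the adjusted p was under 0.05. The bars can be narrower than the test allows. *Col12a1* and *Col16a1* lie to the right in both comparisons with WT, *Col15a1*, *Col4a5* and *Col4a6* to the left in both, and *Col7a1* on opposite sides; with library totals the open points of *Col18a1*, *Col4a2*, *Col20a1* and *Col9a3* in KO against WT and of *Col11a2* in KI against WT change side.

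Type IV chains form the network of the basement membrane. *Col4a1* and *Col4a2* encode the chains of its general form, and the other chains, *Col4a3* to *Col4a6*, form networks found in fewer tissues. The genes lie as head-to-head pairs, *Col4a1* beside *Col4a2* and *Col4a5* beside *Col4a6*, each pair reading outward from a common stretch. The promoter windows are shown because in KI against WT both members of the first pair were called higher and both of the second pair lower. RefSeq windows of GRCm38.p6 run from 250 bases before to 50 after each start. The build used for the deposited counts is not given in the sources used here, and the windows serve as reference sequence only. The *Col4a1* window is chr8:11312777-11313076 on the minus strand and that of *Col4a2* is chr8:11312555-11312854 on the plus strand. The capitals mark the 78 bases, from 11312777 to 11312854, that the windows share as reverse complements, with start sites 21 bases apart and transcripts that overlap. Both windows were rich in G and C, at 74% for *Col4a1* and 73.7% for *Col4a2*.
Col4a1: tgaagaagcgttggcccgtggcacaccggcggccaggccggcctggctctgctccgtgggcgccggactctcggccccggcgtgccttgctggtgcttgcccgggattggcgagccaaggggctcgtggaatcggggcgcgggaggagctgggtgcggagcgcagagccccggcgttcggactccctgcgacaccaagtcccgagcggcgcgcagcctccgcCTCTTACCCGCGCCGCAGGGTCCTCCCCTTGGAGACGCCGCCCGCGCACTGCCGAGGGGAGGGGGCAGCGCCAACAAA
Col4a2: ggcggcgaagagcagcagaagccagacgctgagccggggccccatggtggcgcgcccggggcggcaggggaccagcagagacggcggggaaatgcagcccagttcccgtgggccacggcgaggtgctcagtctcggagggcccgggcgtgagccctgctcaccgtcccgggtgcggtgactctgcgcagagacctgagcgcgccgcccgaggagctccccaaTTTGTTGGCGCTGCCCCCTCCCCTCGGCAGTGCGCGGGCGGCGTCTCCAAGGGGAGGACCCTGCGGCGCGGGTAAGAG

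The *Col4a5* window is chrX:141475169-141475468 on the plus strand and that of *Col4a6* is chrX:141474027-141474326 on the minus strand. These windows share no base, with start sites 1343 bases apart, and held less G and C, at 52.7% and 48.3%. The capitals mark a GC box, searched as GGGCGG on either strand.
Col4a5: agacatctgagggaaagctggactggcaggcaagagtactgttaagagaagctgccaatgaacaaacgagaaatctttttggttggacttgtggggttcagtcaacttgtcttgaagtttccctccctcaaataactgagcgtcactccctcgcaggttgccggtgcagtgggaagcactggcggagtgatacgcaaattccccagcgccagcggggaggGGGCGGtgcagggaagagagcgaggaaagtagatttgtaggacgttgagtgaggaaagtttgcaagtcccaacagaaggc
Col4a6: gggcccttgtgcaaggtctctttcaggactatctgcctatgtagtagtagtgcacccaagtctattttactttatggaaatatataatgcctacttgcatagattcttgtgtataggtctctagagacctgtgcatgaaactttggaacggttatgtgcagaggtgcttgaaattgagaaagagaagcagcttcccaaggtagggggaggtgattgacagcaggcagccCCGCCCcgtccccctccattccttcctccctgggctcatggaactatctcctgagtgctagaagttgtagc

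All 4 windows held a GC box, 1 in *Col4a1*, 3 in *Col4a2*, and 1 each in *Col4a5* and *Col4a6*. A GC box was found in 35.7% of the 32851 RefSeq windows of this length, in 23 of the 38 windows of collagen chains and in 11 of the 17 windows of detected chains, which belong to 15 genes. CCAAT, searched on both strands, was found in 37.4% of all windows, in 13 of the 38 and in 7 of the 17. These matches describe the letters only, and no window of *Col12a1* is in the table.

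*Col4a1* and *Col4a2* were higher in the KI cells than in the other lines. *Col4a1* was at 304, 286, 325 and 294 CPM in the KI libraries, at 119, 123 and 177 CPM in the WT libraries, and at 142, 155, 148 and 163 CPM in the KO libraries. All KI libraries lay above all others, while KO lay within the range of WT. On the log2 scale, the fold change of *Col4a1* was 1.11 for KI against WT (standard error 0.16, adjusted p = 0.000192), 0.10 for KO against WT (standard error 0.15, adjusted p = 0.596) and -0.99 for KO against KI (standard error 0.08, adjusted p = 1.23e-07). Library WT 8, the highest of its group, bears on the second value: without it *Col4a1* was called higher in the KO cells (0.34, adjusted p = 0.0135).

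*Col4a2* followed with 242, 225, 266 and 225 CPM in the KI libraries, 112, 119 and 149.5 CPM in the WT libraries, and 108, 116, 108 and 119 CPM in the KO libraries. Again the KI libraries stood apart and KO and WT overlapped. Its log2 fold change was 0.92 for KI against WT (standard error 0.15, adjusted p = 0.000381), -0.19 for KO against WT (standard error 0.13, adjusted p = 0.235) and -1.08 for KO against KI (standard error 0.09, adjusted p = 6.23e-08). The interval of 1.96 standard errors for KO against WT ran from -0.44 to 0.06 for *Col4a2* and from -0.20 to 0.40 for *Col4a1*. With library totals the sign of *Col4a2* turned (0.21), and *Col4a1* was at 0.49, above its interval, without a call (adjusted p = 0.0609). Of the 10 tested genes nearest to this pair, 7 were called lower and 0 higher in KO against KI, with a median log2 fold change of -0.57, while in KI against WT the neighbours' median was 0.29 with 3 higher and 1 lower; their part in the pair's values was not tested.

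The balance within the pair was compared as well. The ratio of *Col4a1* to *Col4a2* counts, which does not depend on the scaling, was 1.31, 1.34, 1.36 and 1.38 in the KO libraries, 1.07, 1.03 and 1.19 in the WT libraries, and 1.25, 1.27, 1.22 and 1.31 in the KI libraries. No WT library reached the ratio of any KO or KI library, and KO 5, at 1.313, was just above KI 8, at 1.308. The mean log2 ratio was higher by 0.30 in KO than in WT and by 0.21 in KI than in WT (exact permutation test, two-sided, p = 0.0571 for each, which is the smallest p that 4 against 3 libraries allow). Between KO and KI the difference was 0.09 (exact permutation test, two-sided, p = 0.0286, the smallest for 4 against 4), and the adjusted p over the 3 tests was 0.0571, so that no difference passed 0.05 after adjustment. The annotated exons of these genes share 22 bases on opposite strands, and whether reads were counted by strand is not stated. The ratios of *Col1a1* to *Col1a2*, *Col5a1* to *Col5a2* and *Col6a1* to *Col6a2* were not tested, since each pair had a chain under 10 counts in at least 1 library of every group.

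*Col4a5* and *Col4a6*, the X-linked pair, were highest in WT and lowest in KO. *Col4a5* was at 50.45, 53.5 and 50.4 CPM in the WT libraries, at 26.0, 21.8, 29.2 and 29.4 CPM in the KI libraries, and at 7.82, 9.18, 7.59 and 8.40 CPM in the KO libraries. The 3 groups did not overlap in any library. Its log2 fold change was -2.66 for KO against WT (standard error 0.13, adjusted p = 1.33e-07), a level 6.32-fold lower, and -0.95 for KI against WT (standard error 0.14, adjusted p = 0.000241). KO against KI gave -1.68 (standard error 0.13, adjusted p = 4.45e-08).

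*Col4a6* was at 3.48, 6.49 and 8.04 CPM in the WT libraries, 3.08, 2.54, 3.42 and 2.92 CPM in the KI libraries, and 0.729, 0.474, 0 and 0.667 CPM in the KO libraries, the 0 being library KO 7. Every KO library lay below every WT and KI library, and the highest KI library was just under the lowest WT library. edgeR gave a log2 fold change of -3.67 for KO against WT (standard error 0.64, adjusted p = 0.000624), -1.01 for KI against WT (standard error 0.28, adjusted p = 0.0117) and -2.65 for KO against KI (standard error 0.54, adjusted p = 0.000743). The call in KI against WT was lost with library totals (-0.72, adjusted p = 0.0908) and with 1 fit of all 3 groups (adjusted p = 0.0994). The table holds 2 entries for *Col4a6*, and library KO 7 had 0 counts in both. Both entries were lower in every KO library than in every WT library.

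The genes around this pair had no common direction. The 391 genes of the X chromosome tested in KO against WT had a median log2 fold change of -0.14, and the 10 tested genes nearest to *Col4a5* and *Col4a6* had a median of 0.05, with 4 called higher and 3 lower and values from -4.24 to 2.14. As a share of the type IV counts, *Col4a5* and *Col4a6* together made up 18.9%, 19.8% and 15.1% in the WT libraries, 3.31%, 3.43%, 2.88% and 3.12% in KO, and 5.05%, 4.54%, 5.23% and 5.86% in KI. In the KO cells this lower share came with *Col4a1* and *Col4a2* levels inside or just under the WT range, and in the KI cells with higher *Col4a1* and *Col4a2* levels. *Col4a3* and *Col4a4*, which sit head to head on another chromosome, had at most 15 and 17 counts in a library and were not tested.

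**Figure D3:**
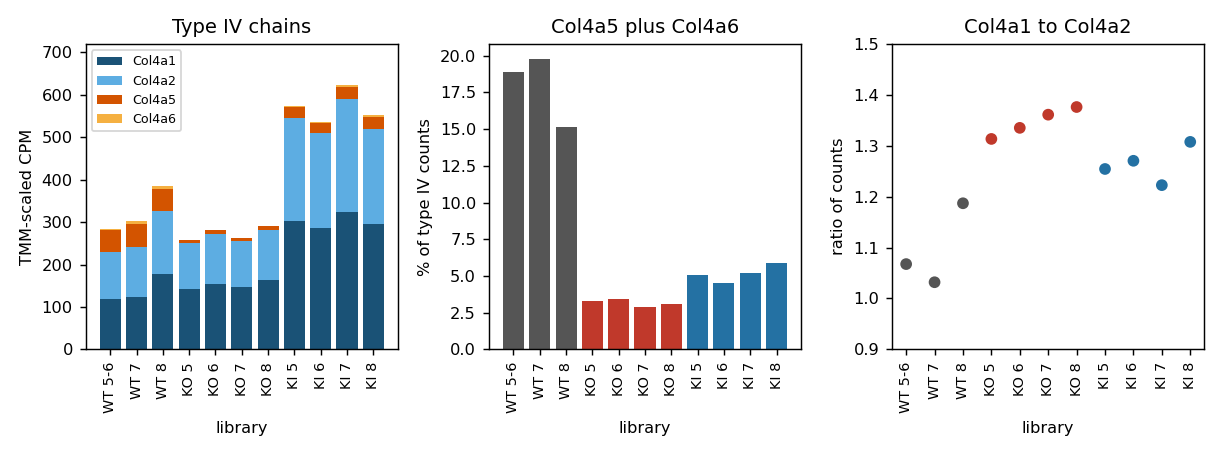
Type IV chains in each library: stacked TMM-scaled CPM of *Col4a1*, *Col4a2*, *Col4a5* and *Col4a6* (left), *Col4a5* plus *Col4a6* as a percent of all type IV counts (middle), and the ratio of *Col4a1* to *Col4a2* counts on an axis from 0.9 to 1.5 (right), with WT in grey, KO in red and KI in blue in the middle and right panels. The middle panel runs from 15.1% to 19.8% in WT and does not exceed 5.86% in the other lines.

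Multiplexins carry heparan sulfate or chondroitin sulfate on their core and anchor the basement membrane to the matrix below it. *Col18a1* was at 335, 336, 368 and 362 CPM in the KO libraries, 300.5, 316 and 443 CPM in the WT libraries, and 422, 429, 421 and 435 CPM in the KI libraries. Library WT 8 exceeded all others, and the other WT libraries lay below all KO and KI libraries. In the fits, its log2 fold change was -0.03 for KO against WT (standard error 0.15, adjusted p = 0.87, interval from -0.33 to 0.26) and 0.27 for KI against WT (standard error 0.16, adjusted p = 0.184, interval from -0.04 to 0.58). Both values depend on library WT 8, without which the first was 0.19 and the second, 0.47, was called. The KO cells were lower than the KI cells by a small amount (-0.28, standard error 0.08, adjusted p = 0.00661), a call that was lost in 1 fit of all 3 groups (adjusted p = 0.0671).

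*Col15a1*, the other multiplexin, was at 12.8, 13.1, 13.6 and 17.8 CPM in the KO libraries, 41.4, 47.4 and 68.3 CPM in the WT libraries, and 19.3, 20.6, 21.8 and 17.8 CPM in the KI libraries. All WT libraries lay above all others. Its log2 fold change was -1.89 for KO against WT (standard error 0.19, adjusted p = 1.64e-05), -1.40 for KI against WT (standard error 0.18, adjusted p = 6.13e-05) and -0.47 for KO against KI (standard error 0.13, adjusted p = 0.00693). So *Col15a1* was 3.71-fold lower in KO and 2.63-fold lower in KI than in WT, whereas *Col18a1* was not called against WT with TMM. With library totals, *Col18a1* was called higher in KI against WT (0.57, adjusted p = 0.0294) but not in KO against WT (0.36, adjusted p = 0.141).

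FACIT chains summed to 32.8 to 40.2 CPM in the WT, 88.9 to 100.2 CPM in the KO and 109 to 151 CPM in the KI libraries, without overlap, and *Col12a1* and *Col16a1* held most of these counts. *Col12a1* encodes a collagen that decorates fibrils of type I collagen in tissues under tension. It was at 8.74, 12.6 and 15.1 CPM in the WT libraries, at 38.1, 42.8, 42.8 and 51.7 CPM in the KO libraries, and at 98.4, 82.5, 122 and 88.5 CPM in the KI libraries, with no overlap between any of the groups. In log2 terms, the difference was 1.83 for KO against WT (standard error 0.20, adjusted p = 2.59e-05), 3.00 for KI against WT (standard error 0.21, adjusted p = 8.78e-07) and -1.15 for KO against KI (standard error 0.13, adjusted p = 2.41e-06). An 8.01-fold difference in KI against WT was the largest rise over WT among the called chains.

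*Col16a1*, a FACIT that binds integrins and is found near basement membranes, had the opposite order in the altered lines. It was at 45.3, 41.01, 43.2 and 41.4 CPM in the KO libraries, 15.96, 15.85 and 16.6 CPM in the WT libraries, and 21.3, 20.3, 25.1 and 23.9 CPM in the KI libraries. KO lay highest and WT lowest, without overlap. The log2 fold change was 1.38 for KO against WT (standard error 0.12, adjusted p = 6.36e-06), 0.49 for KI against WT (standard error 0.14, adjusted p = 0.0165) and 0.92 for KO against KI (standard error 0.10, adjusted p = 1.86e-06). The call in KI against WT was lost without library KI 7 (0.43, adjusted p = 0.0572) and without library WT 7 (0.47, adjusted p = 0.0577). *Col16a1* has 2 entries in the table, each with higher counts in every KO library than in every WT library.

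The remaining detected FACIT chains were low. *Col20a1* was at 3.92 to 6.45 CPM in the KO, 6.24 to 7.02 CPM in the WT and 2.43 to 4.85 CPM in the KI libraries. It was called lower in KI against WT (log2 fold change -0.86, standard error 0.25, adjusted p = 0.0140), a call that was lost with library totals (-0.54, adjusted p = 0.111). KO against KI was not called (0.52, adjusted p = 0.0673), but was called with library totals (0.59, adjusted p = 0.0440), without library KI 6 (0.68, adjusted p = 0.0331) and without library KO 5 (0.64, adjusted p = 0.0324). *Col9a3* was at 0.681 to 2.19 CPM in all libraries and was not called in any comparison, and 6.07% of its annotated exon bases are shared with *Tcfl5*. *Col9a1* and *Col9a2*, which join *Col9a3* in type IX collagen, had at most 4 and 5 counts in a library.

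*Col7a1* encodes the chain of the anchoring fibrils that tie epithelial basement membranes to the tissue beneath, and it went in opposite directions in the altered lines. It had 67, 115 and 120 counts in the WT libraries, with 28, 25, 33 and 26 in KO and 401, 475, 425 and 373 in KI. In CPM these were 2.99, 4.64 and 4.25 in WT, 0.785, 0.740, 0.990 and 0.598 in KO and 11.2, 13.1, 11.1 and 11.3 in KI, with no overlap between any of the groups. Its log2 fold change was -2.37 for KO against WT (standard error 0.32, adjusted p = 0.000118), 1.56 for KI against WT (standard error 0.20, adjusted p = 8.44e-05) and -3.91 for KO against KI (standard error 0.19, adjusted p = 2.86e-10). No left-out library and no alternative scaling or tool ended any of these 3 calls.

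*Col6a1*, a chain of the beaded filaments, was low and unevenly counted. It had 6, 36 and 33 counts in the WT libraries, 0, 16, 11 and 0 in KO, and 112, 143, 201 and 85 in KI, or 0.267, 1.45 and 1.17 CPM in WT, 0, 0.474, 0.330 and 0 in KO, and 3.13, 3.94, 5.25 and 2.58 CPM in KI. All KI libraries lay above all others. The log2 fold change was 1.93 for KI against WT (standard error 0.46, adjusted p = 0.0052) and -4.26 for KO against KI (standard error 0.68, adjusted p = 9.05e-05). KO against WT was not called (-2.32, standard error 1.06, adjusted p = 0.0856), but was called with limma-voom (-3.67, adjusted p = 0.0275), in 1 fit of all 3 groups (adjusted p = 0.026) and without library KO 6 (-3.21, adjusted p = 0.0473). Its partner chains were all but absent, since *Col6a2* had at most 11 counts in a library and *Col6a3* had 0 in all. Markers of stellate cells or fibroblasts, cells that are known to make type VI collagen, were summed highest in the KI libraries as well, at 5.29 to 7.06 CPM. Of the 11 markers, 3 reached 10 counts in a KI library and 2 in a WT library. *Dcn*, a marker of this list, went the other way, at a mean of 0.544 CPM in WT and 0.149 CPM in KI. The part of these markers in the *Col6a1* result was not tested. In such bulk RNA, fewer cells of a kind and less RNA per cell cannot be told apart.

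Zeros at low levels need care in this table. Over all genes and libraries, the value 1 occurred 827 times and the value 2 occurred 4344 times, beside 108976 zeros, and the values 3 and 4 occurred 2340 and 3170 times, so that a count of 1 was the rarest of the low values. Among the collagen chains, 9 zeros in 6 chains stood beside a library of the same group with 10 or more counts, such as *Col4a6* in KO 7 and *Col6a1* in KO 5 and KO 8.

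**Figure D4:**
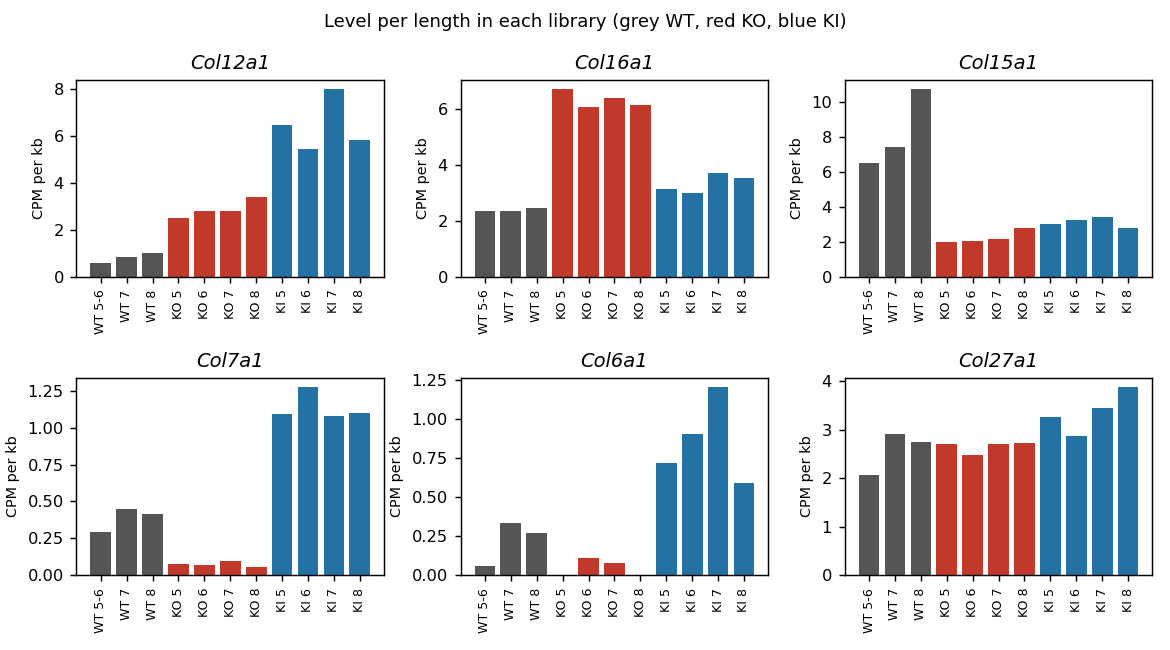
Level of 6 chains per kilobase of exon in each library (TMM-scaled CPM per kb, bars from 0, a separate axis for each chain), with WT in grey, KO in red and KI in blue. *Col12a1* is highest in KI and *Col16a1* in KO, *Col15a1* in WT, *Col7a1* is lowest in KO and highest in KI, *Col6a1* is highest in KI with KO and WT overlapping, and *Col27a1* overlaps between KO and WT with this scaling.

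Fibrillar chains were scarce apart from *Col27a1*, a fibrillar collagen known from cartilage that is made by other tissues at low levels. It was at 35.2, 32.2, 35.2 and 35.4 CPM in the KO libraries, 27.0, 37.8 and 35.6 CPM in the WT libraries, and 42.5, 37.3, 44.9 and 50.4 CPM in the KI libraries. KO lay within the WT range, and the KI libraries lay above all KO libraries but not above all WT libraries. The log2 fold change was 0.02 for KO against WT (standard error 0.14, adjusted p = 0.911, interval from -0.26 to 0.30), 0.38 for KI against WT (standard error 0.16, adjusted p = 0.0735) and -0.34 for KO against KI (standard error 0.10, adjusted p = 0.0106). The KI against WT difference was called with library totals (0.70, adjusted p = 0.0132), in 1 fit of all 3 groups (0.39, adjusted p = 0.0303) and without library WT 8 (0.43, adjusted p = 0.0407). For KO against WT, library totals gave 0.42, above the interval, without a call (adjusted p = 0.0685).

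*Col11a2* was at 0.805 to 3.52 CPM in all libraries and *Col1a1* at 0 to 1.04 CPM. Neither was called in the main edgeR fit of any comparison. The difference of *Col11a2* in KO against WT (-0.95, standard error 0.39, adjusted p = 0.0582) was called in 1 fit of all 3 groups (adjusted p = 0.0348) and without library WT 8 (-1.21, adjusted p = 0.0161). With limma-voom, *Col11a2* was called lower (-0.78, adjusted p = 0.0413) and *Col1a1* higher (2.70, adjusted p = 0.0385) in KO against KI. *Col1a1* had 0 to 35 counts per library, and with *Col1a2* at 0 in all libraries, the RNA of both chains of type I collagen was at or near the limit of detection. The table has 4 entries for *Col11a2*, none above 55 counts. The transmembrane chain *Col17a1*, known from hemidesmosomes, had 9, 8, 10 and 0 counts in the KI libraries, 0, 0 and 2 in the WT libraries and 0 in all KO libraries, and was too low to be tested.

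Genes that process, export, crosslink, bind or degrade collagen were examined as a list of 52, of which 34 could be tested in KO against WT. In that comparison 6 were called higher and 15 lower in the KO cells, with a median log2 fold change of -0.20, beside 26.7% higher, 28.4% lower and a median of -0.03 over all genes. In KI against WT 9 of 34 were higher and 8 lower, with a median of 0.04, beside 21.2%, 21.0% and -0.02 over all genes. In KO against KI 7 of 35 were higher and 18 lower, with a median of -0.33, beside 27.0%, 27.0% and 0.00 over all genes. The 17 members that hydroxylate, glycosylate or fold the chains had 3 higher and 8 lower of 14 tested in KO against WT (over all genes, 26.7% and 28.4%). In KI against WT, 4 were higher and 5 lower of 15 tested (21.2% and 21.0%). For the propeptide and fibril assembly members, 5 of 5 tested were lower in KO than in KI, beside 27.0% of all genes. Of the same 5, 1 was higher and 2 lower in KO against WT (over all genes, 26.7% and 28.4%). In KI against WT 3 were higher and 0 lower (21.2% and 21.0%). Among the receptors, 3 of 7 tested were lower and 0 higher in KO against WT, the others not being called, beside 28.4% lower over all genes.

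*Plod2*, a lysyl hydroxylase, had 530 to 619 counts in the KO libraries, 10374 to 13749 in the WT libraries and 7733 to 9613 in the KI libraries. Its log2 fold change was -5.05 for KO against WT (standard error 0.20, adjusted p = 4.09e-08) and -1.01 for KI against WT (adjusted p = 0.000657), the same order of the lines as for *Col4a5*. *Colgalt2*, which adds galactose to hydroxylysine, had 0 to 13 counts in KO, 284 to 433 in WT and 301 to 420 in KI, with a log2 fold change of -6.33 for KO against WT (adjusted p = 1.51e-06) and no call for KI against WT (-0.42, adjusted p = 0.0711). *Crtap*, a partner of prolyl 3-hydroxylase, behaved in another way, with 335 to 560 counts in KO, 96 to 135 in WT and 0 to 4 in KI.

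*Mrc2*, a receptor that takes up collagen for degradation, had 0 to 9 counts in KO, 30 to 59 in WT and 21 to 45 in KI (log2 fold change for KO against WT -4.09, adjusted p = 0.00244). *Itga2*, 1 of several collagen-binding integrin chains, was lower in both altered lines, by -2.31 in KO against WT (adjusted p = 4.23e-07) and -0.87 in KI against WT (adjusted p = 0.000321). *Pcolce2*, which enhances the cutting of procollagen, rose in both, by 2.27 in KO (adjusted p = 6.08e-05) and 2.86 in KI (adjusted p = 9.64e-06). *P3h2*, a prolyl 3-hydroxylase that acts on type IV collagen, had 0 counts in all WT libraries, 0 to 6 in KO and 12 to 36 in KI. Its mean level in KI was 5.78 times a floor of 3 counts per WT library. That floor covers counting error only, and zeros in this table also occur beside 10 or more counts in the same group. *Adamts14*, a procollagen protease, had 3 to 16 counts in the KO libraries and 0 in all others. *Lox*, which starts the crosslinking of fibrillar collagen, had 0 counts in all 11 libraries, as did *P4ha3*, *Adamts2*, *Adamts3*, *Mmp1a* and *Mmp8*. Other crosslinking members were expressed, and 3 of the 5 could be tested. In KO against WT 1 was higher and 1 lower (over all genes, 26.7% and 28.4%). In KI against WT 0 were higher and 1 lower (21.2% and 21.0%). *Fkbp10*, *Lum*, *Fmod*, *Itga11*, *Gp6*, *Mmp2*, *Mmp9* and *Ctsk* were at 0 in at least 1 whole group and had at most 13 counts in any library.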

How the data were processed

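RNA of AML12 cells was sequenced in 11 libraries. The authors deposited read counts per gene without normalization, made by their sequencing provider. The submitters' processing notes list HISAT2, TopHat2, Bowtie2 and StringTie, with neither roles nor versions, and the genome build is not given in the sources used here. Of the deposited lines, 26462 were used and 10 broken ones were left out. The 11 FPKM columns, in which decimals were lost, and the 9 columns of the authors' own DESeq2 comparisons were not used. Counts were summed by gene name, which joined the entries of 1131 names.

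Each comparison was fitted on the libraries of its 2 groups with edgeR 4.0.16 in R 4.3.3 (filterByExpr, TMM, robust quasi-likelihood test), with Benjamini-Hochberg adjustment over all genes tested and calls at an adjusted p under 0.05. The test was run on simulated counts in which 200 genes were changed, as many up as down. There edgeR called 10, 9 and 6 unchanged genes in the 3 comparisons. The simulation held no shift in composition between groups. It therefore does not cover data in which 42.3% to 55.1% of genes were called. Alternatives were library totals, relative log expression factors, DESeq2 1.42.0, limma-voom (limma 3.58.1), no filter, 1 fit of all 3 groups, a replicate block and leaving out each library. Depth was 29840366 to 38422243 counts per library, and floors cover counting error only, whereas intervals of 1.96 standard errors also hold the spread between libraries. Standard errors were derived from the fold change and the test statistic, and these intervals can be narrower than the test allows. For *Col6a1* in KO against WT the interval ran from -4.40 to -0.23, while the unadjusted p of the edgeR test was 0.0519. Exon lengths and shared exon bases came from GENCODE M21 on GRCm38, and promoter windows and gene order from RefSeq on GRCm38.p6. The ratio test was an exact permutation over libraries, run with scipy 1.17.1.

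Values per library were given for the 8 chains with the highest level per length, for the 8 called chains with the largest change in any comparison and for their partner chains, and other genes of collagen handling were named where they were called with a log2 fold change over 2 against WT or were at 0 in a whole group. *Col4a3*, *Col4a4*, *Col17a1* and other low chains were named to account for their class. The members and lists were chosen with earlier results of these data known.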

Additional observations from a re-analysis of the deposited data

Results flagged for a closer look

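Of 30 sets of 4 libraries, taken as each tested chain in the KO and in the KI libraries, 2 held a library far from the others of its line, where chance alone gives about 1.5. *Col27a1* in the KO libraries was at 32.2 CPM in KO 6 and at 35.2 to 35.4 CPM in the others, a gap of 0.953 of the whole range. *Col7a1* in the KI libraries was at 13.1 CPM in KI 6 and at 11.1 to 11.3 CPM in the others, a gap of 0.882 of the range.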

How the results depend on the processing

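Over 645 alternative values of single chains, 610 kept their direction and their side of the threshold, 18 gained a call, 6 lost one and 11 changed sign, all of the last in chains without a call. With library totals in KO against WT, *Col18a1* turned to 0.36, *Col20a1* to 0.048, *Col4a2* to 0.21 and *Col9a3* to 0.12 on the log2 scale, and in KI against WT *Col11a2* turned to 0.15. Leaving out each library in turn gave -0.12 to 0.19 for *Col18a1*, -0.17 to 0.85 for *Col1a1* and -0.088 to 0.14 for *Col27a1* in KO against WT, and -0.50 to 0.046 for *Col11a2* in KI against WT. The called chains then numbered 6 to 8 in KO against WT, 9 to 12 in KI against WT and 11 to 12 in KO against KI. The log2 ratio of *Col4a1* to *Col4a2* in KO against KI stayed between 0.076 and 0.11, but with 3 libraries in 1 group the smallest possible p is above 0.05. With a floor of 3 counts in place of 10, 29 chains were detected. Replicate numbers were not used as pairs, since libraries of the same number correlated at only -0.19 to 0.21. A replicate block gave 7, 11 and 11 called chains in the 3 comparisons and turned *Col18a1* in KO against WT to 0.022, and it called *Col11a2* in KO against WT (-1.01, adjusted p = 0.0270) and *Col27a1* in KI against WT (0.45, adjusted p = 0.0435). The cause of these changes was not tested beyond the shift of all genes given for library totals. Low counts limit *Col6a1*, *Col4a6*, *Col1a1*, *Col9a3* and *Col11a2*.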
